A study of Mus musculus with 6 samples.

Results

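Axon guidance ligands and receptors were examined in RNA sequencing of mouse hypothalamus, in 3 aged mice (22 months) and 3 young mice (12 weeks). The members were the genes whose symbols carry the name stems of the ephrins and Eph receptors, the semaphorins with their plexin and neuropilin receptors, the netrins with Dcc and the Unc5 receptors, and the Slits with their Robo receptors. This gave 71 of the 18228 genes in the deposited count table, of which 69 are ligands or receptors of these families. The other 2, Unc50, a membrane protein of the Golgi, and Unc5cl, a signalling protein with a death domain, share only the stem of the name with the Unc5 netrin receptors and are kept apart below.

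The study sequenced the hypothalamus to find genes that go with cognitive decline at older age. A behavioural experiment used 5 mice per age, from which 3 per age were taken at random for sequencing. All mice were kept under a regular light and dark cycle with free food and water, and were anaesthetised with sodium pentobarbital before they were killed. The labels give no strain, genotype or sex. The libraries are polyA-selected bulk tissue from separate mice, so fewer cells of a type and less RNA per cell cannot be told apart.

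Guidance genes encode secreted or membrane-bound cues and the receptors that read them on growing axons. Eph receptors and ephrins signal between touching cells, in both directions. Semaphorins act mainly through plexins, with neuropilins as the co-receptors of the secreted class 3 members. Netrins bind Dcc and the Unc5 receptors, and Slits bind Robo receptors. In the adult brain many of these genes stay expressed in neurons, glia and vessels, where they are known for roles at synapses and in myelin and vessel wall cells.

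Libraries held 17208291 to 18884403 counted reads. The 4 Y-linked genes Ddx3y, Uty, Kdm5d and Eif2s3y together gave 3394 to 3617 reads per aged library and 24 to 32 reads per young library, so age and sex cannot be told apart in any result below; 3 members, Efnb1, Plxna3 and Plxnb3, are X-linked. The 12 hypothalamic markers, such as Avp, Oxt, Pmch and Pomc, summed to 1467 to 1540 CPM (read counts scaled to the size of each library after TMM adjustment) in aged and 1461 to 1608 CPM in young libraries, and none was at 0 in every library. Of these 12, Avp was higher in aged libraries, by 1.51-fold (edgeR adjusted p = 0.00248), Hcrt was lower, by 43.5% (edgeR adjusted p = 0.0161), and the others did not pass. Some markers of other cells and regions were lower in aged libraries, and the other tested markers of these lists did not pass. Over all tested genes 3.64% were called lower. Of 7 oligodendrocyte precursor markers, 2 were lower (sums of 309 to 376 CPM in aged and 438 to 496 CPM in young libraries), and of 7 pericyte and smooth muscle markers, 2 (148 to 183 CPM in aged and 214 to 246 CPM in young libraries). Of 7 endothelial markers, 3 were lower (164 to 194 CPM in aged and 191 to 231 CPM in young libraries), of 9 thalamus and habenula markers, 3 (440 to 476 CPM in aged and 506 to 701 CPM in young libraries), and of 8 cortex, hippocampus and amygdala markers, of which 7 were tested, 2 (78.3 to 93.9 CPM in aged and 97.8 to 306 CPM in young libraries). Of 7 fibroblast and meningeal markers, 4 were lower (54.3 to 63.0 CPM in aged and 77.4 to 88.3 CPM in young libraries), and of 6 midbrain dopamine neuron markers, 3 (122 to 171 CPM in aged and 164 to 369 CPM in young libraries). The endothelial sums overlapped between the ages. Of 6 markers each of astrocytes, mature oligodendrocytes and microglia, 1 was lower in each list. Of 6 neuron, 5 ependyma and 6 striatum markers, 0 passed in either direction. The part of these lists in the results below was not tested.

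Most guidance genes that passed the test were lower in aged hypothalamus, by 19.7% (Ephb2) to 41.8% (Ephb3) of the young level. Of the 69 members with enough reads to test (34 ligands, 33 receptors and both genes that match by name only), 12 were lower and 1 was higher in aged than in young libraries, and 56 did not pass. To pass, a gene needed an adjusted p below 0.05 (Benjamini-Hochberg, over all 14702 tested genes) in edgeR's quasi-likelihood test. Over all tested genes 3.64% were called lower and 3.22% higher, 535 and 474 genes; with total counts alone these were 446 and 627, and on log2(FPKM + 1) 293 and 616. The members called lower were Epha4, Epha5, Ephb2, Ephb3, Ntn1, Ntn3, Plxna4, Plxnb1, Robo2, Sema5a, Sema6a and Sema6d, and the member called higher was Epha2. The levels of the 12 called lower together summed to 788 to 818 CPM in aged and 1015 to 1100 CPM in young libraries. These 12 were picked by the test on the same libraries, so this gap follows from the choice and is no further result. The median log2 fold change was -0.09 over the 69 members and -0.0035 over all tested genes. The fold change was negative for 51 members and positive for 18. In 23 members every aged library was below every young one, and in 5 every aged library was above; over all tested genes these shares were 16.2% and 15.5%. The 2 members that were not tested had few reads: Epha1 had 3 to 16 and the ephrin Efna4 had 1 to 10 per library.

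**Figure D1:**
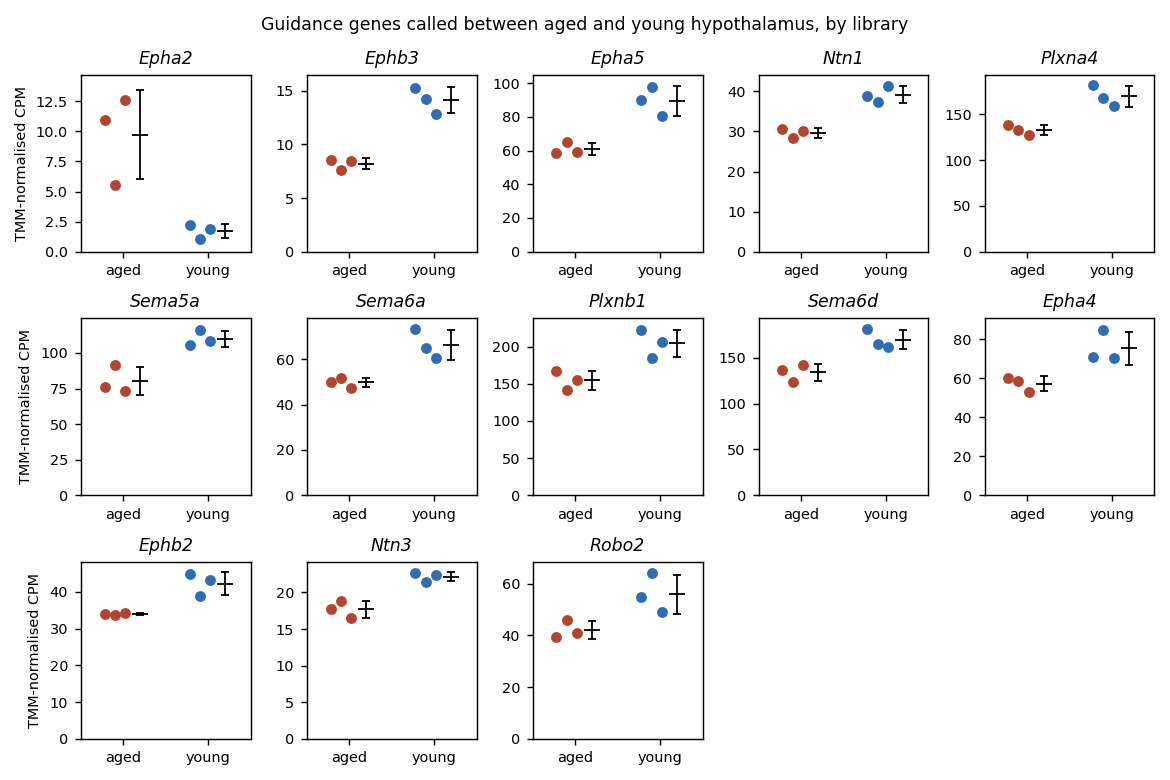
TMM-normalised CPM (vertical axis from 0) of the 13 guidance genes called between aged (red) and young (blue) libraries, 1 point per library, with the mean and SD of each group (n = 3) as a black bar. Every aged library lies above every young one for Epha2 and below every young one for the 12 other genes.

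The number of members called changed when single libraries were left out, while Epha2, Epha5 and Ephb3 kept their calls under all 17 alternatives tried. Without aged replicate 1, without aged replicate 3 or without young replicate 1, the number of members called lower was 2, and these were Epha5 and Ephb3. Leaving out aged replicate 2 gave 13, young replicate 2 gave 8 and young replicate 3 gave 6. Over all tested genes 1009 were called with all libraries; leaving out aged replicate 1, 2 or 3 gave 244, 1633 and 150, and leaving out young replicate 1, 2 or 3 gave 262, 579 and 396.

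The families stood at different levels, which are compared here on FPKM, a scale that divides by gene length and library total, with no TMM adjustment. Class 4 to 7 semaphorins summed to 166 to 171 FPKM in aged and 167 to 191 FPKM in young libraries, and plexins with neuropilins to 135 to 152 FPKM in aged and 142 to 155 FPKM in young libraries. Class 3 semaphorins had the lowest sum of the 7 families, at 16.1 to 16.8 FPKM in aged and 16.4 to 18.2 FPKM in young libraries. The ephrins summed to 93.6 to 101 FPKM in aged and 83.4 to 91.5 FPKM in young libraries, and the Eph receptors to 64.7 to 69.6 FPKM in aged and 75.1 to 79.7 FPKM in young libraries. Slits with Robos summed to 50.5 to 51.4 FPKM in aged and 54.2 to 59.1 FPKM in young libraries, and netrins with Dcc and the Unc5 receptors to 50.2 to 54.1 FPKM in aged and 54.5 to 56.2 FPKM in young libraries. In 4 of the 7 families the sums of aged and young libraries did not overlap. The ephrin sum was higher in aged libraries, and the sums of the Eph receptors, the Slits with Robos and the netrin family were lower. In the other 3 the sums overlapped. A sum follows its highest genes: Efnb3 and Slit1, described next, made up most of the ephrin sum and of the Slit and Robo sum, and neither passed. Gene by gene, the log2 fold change was positive for 4 and negative for 3 of the 7 tested ephrins. It was negative for 11 of 13 tested Eph receptors, 5 of 7 Slits and Robos and 7 of 9 tested netrin family genes. Efnb3, a membrane-bound ephrin known for its role at the spinal cord midline, had the highest level of all members, at 63.5 ± 3.43 FPKM in aged and 55.0 ± 3.79 FPKM in young libraries (SD, n = 3 each). Slit1, a secreted Robo ligand, came next, at 30.7 ± 0.579 FPKM in aged and 33.0 ± 3.16 FPKM in young libraries.

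**Figure D2:**
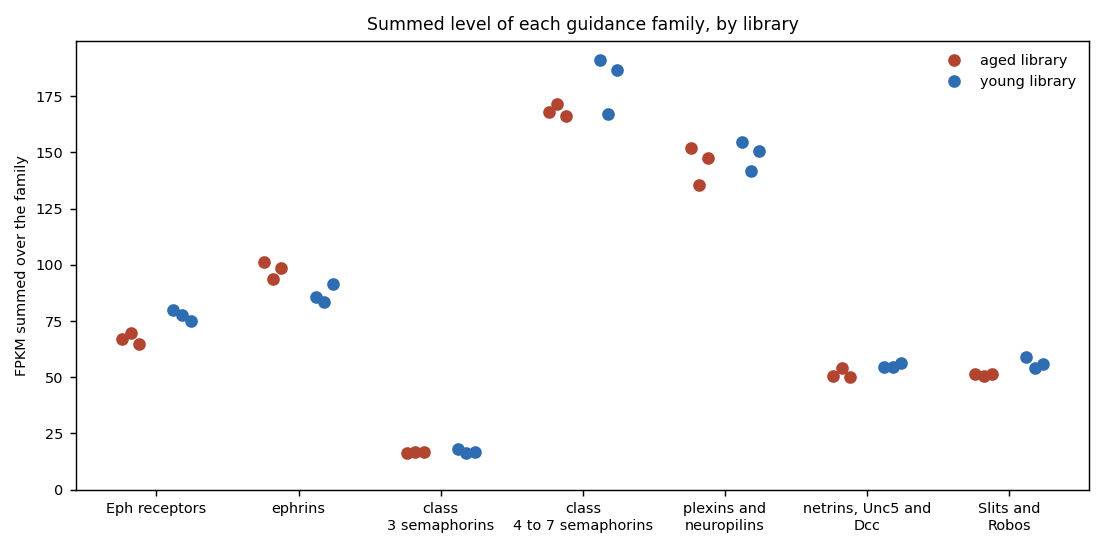
FPKM summed over the members of each guidance family (vertical axis from 0), 1 point per library, aged libraries in red and young libraries in blue. The ephrin sum is higher in all 3 aged libraries than in any young one. The sums of Eph receptors, Slits with Robos and netrins with their receptors are lower in all 3. The sums of plexins with neuropilins and of both semaphorin groups overlap between the ages. None of these sums was tested. Efnb3 and Slit1, neither of them called, make up most of the ephrin sum and of the Slit and Robo sum.

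Eph receptors held the largest changes in both directions. Of 14 listed Eph receptors 13 were tested; Epha2 was higher, Epha4, Epha5, Ephb2 and Ephb3 were lower, and 8 did not pass. Their median log2 fold change was -0.30. Promoters are shown for the 5 called receptors, since they are the members of the family that passed the test. Each runs 5′ to 3′ on the gene's strand over 300 bases around the RefSeq gene start (RefSeq, GRCm38.p6, an earlier build than the GRCm39 of the deposited counts); capitals mark GC boxes (GGGCGG) and CCAAT boxes (CCAAT), read on both strands. TATA boxes (TATAAA) and E-boxes (CACGTG) were also searched, and these letters are in none of the 5 windows.
Epha2: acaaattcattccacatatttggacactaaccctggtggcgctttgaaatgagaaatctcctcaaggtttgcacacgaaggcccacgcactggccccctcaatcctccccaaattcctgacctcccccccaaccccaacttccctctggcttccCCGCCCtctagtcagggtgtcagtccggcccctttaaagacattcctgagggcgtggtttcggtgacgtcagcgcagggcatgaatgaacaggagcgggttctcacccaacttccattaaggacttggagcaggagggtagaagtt
Ephb3: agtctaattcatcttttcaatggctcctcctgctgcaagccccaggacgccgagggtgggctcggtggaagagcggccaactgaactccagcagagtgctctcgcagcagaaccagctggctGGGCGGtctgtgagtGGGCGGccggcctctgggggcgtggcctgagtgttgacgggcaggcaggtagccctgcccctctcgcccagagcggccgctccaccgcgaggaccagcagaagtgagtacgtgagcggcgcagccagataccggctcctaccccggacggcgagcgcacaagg
Epha5: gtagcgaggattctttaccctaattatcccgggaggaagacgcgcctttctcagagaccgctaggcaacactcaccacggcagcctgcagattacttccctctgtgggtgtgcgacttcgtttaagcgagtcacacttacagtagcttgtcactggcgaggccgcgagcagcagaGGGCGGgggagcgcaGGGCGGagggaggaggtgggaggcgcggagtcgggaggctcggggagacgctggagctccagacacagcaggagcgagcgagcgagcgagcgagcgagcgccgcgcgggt
Epha4: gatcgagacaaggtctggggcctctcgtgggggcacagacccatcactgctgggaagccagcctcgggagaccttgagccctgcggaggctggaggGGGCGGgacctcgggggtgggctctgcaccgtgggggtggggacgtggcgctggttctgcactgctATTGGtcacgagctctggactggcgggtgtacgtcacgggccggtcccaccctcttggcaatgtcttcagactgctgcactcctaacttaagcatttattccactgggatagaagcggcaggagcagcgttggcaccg
Ephb2: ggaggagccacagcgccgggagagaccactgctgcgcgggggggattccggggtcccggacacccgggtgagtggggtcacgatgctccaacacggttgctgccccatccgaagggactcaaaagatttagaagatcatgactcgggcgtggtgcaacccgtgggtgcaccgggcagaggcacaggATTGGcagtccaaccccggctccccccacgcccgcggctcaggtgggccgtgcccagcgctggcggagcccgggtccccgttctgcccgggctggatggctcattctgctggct

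The windows are chr4:141300971-141301270 on the plus strand for Epha2, chr16:21204545-21204844 on the plus strand for Ephb3, chr5:84417333-84417632 on the minus strand for Epha5, chr1:77515039-77515338 on the minus strand for Epha4 and chr4:136835963-136836262 on the minus strand for Ephb2. GC boxes were found at 1 place in the Epha2 window, 2 in Ephb3, 2 in Epha5 and 1 in Epha4, and CCAAT boxes at 1 place in the Epha4 and 1 in the Ephb2 window. The Epha2 window has 54.7% G and C bases and 10 CpG dinucleotides, and the windows of the 4 receptors that fell have 64.0% to 68.7% and 17 to 30. RefSeq promoters were found for 61 of 71 members (77 windows, since a gene can have several starts). A GC box is in 71.4% of the members' windows, against 60.0% of the windows of all tested genes and 35.7% of all windows in the table. A CCAAT box is in 28.6% of the members' windows, against 37.2% for all tested genes and 37.4% for all windows. For the TATA box these shares were 2.60%, against 7.38% and 13.6%, and for the E-box 6.49%, against 9.36% and 7.15%. The members called lower had few windows, 12 of 9 genes. Their shares were 58.3% for the GC box, 16.7% for the CCAAT box, 0% for the TATA box and 16.7% for the E-box. No difference between these shares was tested.

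Epha2, a receptor for ephrin-A ligands best known from epithelia, was the member that rose. It stood at 10.9, 5.56 and 12.6 CPM in the aged libraries, against 2.23, 1.03 and 1.89 CPM in the young libraries. All 3 aged libraries were above all young ones, with aged replicate 2 the lowest of the aged. The log2 fold change was 2.49 ± 0.35 (SE; edgeR adjusted p = 0.00655), or 5.62-fold, from 18 to 219 reads per library; on log2(FPKM + 1), which understates changes of low genes, it was 1.22.

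Ephb3, an ephrin-B receptor, fell the most in relative terms. It had 8.58, 7.63 and 8.42 CPM in the aged libraries, against 15.3, 14.2 and 12.8 CPM in the young libraries, with a clear gap between the groups. Its log2 fold change was -0.78 ± 0.11 (SE; edgeR adjusted p = 0.00655). Epha5, an ephrin-A receptor of neurons that takes part in topographic mapping, had 58.8, 64.8 and 59.1 CPM in the aged libraries, against 90.1, 97.7 and 80.3 CPM in the young libraries. Its log2 fold change was -0.55 ± 0.08 (SE; edgeR adjusted p = 0.00827), and again no aged library reached a young one.

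Epha4, which binds both ephrin classes and is known at dendritic spines, fell less and closer to the spread. It had 60.1, 58.5 and 52.8 CPM in the aged libraries, against 70.6, 84.9 and 70.3 CPM in the young libraries, where young replicate 2 stood highest (log2 fold change -0.40 ± 0.09 SE, edgeR adjusted p = 0.0311). Ephb2, an ephrin-B receptor that associates with NMDA receptors at synapses, had 34.0, 33.7 and 34.2 CPM in the aged libraries, against 44.8, 38.8 and 43.2 CPM in the young libraries (log2 fold change -0.32 ± 0.08 SE, edgeR adjusted p = 0.0377). The call was lost for Epha4 in 7 and for Ephb2 in 9 of 17 alternatives. Ephb1, at 14.1 ± 1.90 FPKM in aged and 16.4 ± 1.44 FPKM in young libraries (SD, n = 3 each) the Eph receptor with the highest level, did not pass (log2 fold change -0.24 ± 0.10 SE). It passed without aged replicate 2.

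Epha6 and Epha7 had a young group spread by 1 library. These genes lie outside the rule for named genes and were chosen after their values were seen. Epha6 had 10.4, 12.6 and 11.7 CPM in aged libraries, against 13.2, 26.6 and 14.2 CPM in young libraries, and Epha7 had 17.9, 20.6 and 16.4 CPM in aged libraries, against 19.4, 30.5 and 21.2 CPM in young libraries. Young replicate 2 was the high library for both, and neither passed (edgeR adjusted p = 0.130 for Epha6 and 0.183 for Epha7); in DESeq2 Epha6 did (adjusted p = 0.0474). In the same library the 8 cortex, hippocampus and amygdala markers summed to 306 CPM and the 9 thalamus and habenula markers to 701 CPM, the highest of the 6 libraries for both lists. Young replicate 1 came next for the thalamus and habenula list, at 593 CPM, with Epha6 at 13.2 CPM. The part of these lists in the Epha6 and Epha7 values was not tested.

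None of 7 tested ephrins passed in edgeR, with 4 at an unadjusted p under 0.05 and 0 called in DESeq2 and limma-voom. Such an unadjusted p in edgeR was also common over all tested genes, at 3859 of 14702. Efna3, an ephrin-A ligand made by astrocytes, had 44.3, 40.1 and 46.7 CPM in the aged libraries, against 35.8, 38.4 and 34.8 CPM in the young libraries (log2 fold change 0.27 ± 0.08 SE, edgeR adjusted p = 0.0755). Its groups did not overlap, and it was called with total counts alone and without aged replicate 2. Efnb1, an X-linked ephrin-B ligand, had 22.0, 21.3 and 24.1 CPM in the aged libraries, against 14.7, 19.5 and 18.7 CPM in the young libraries (log2 fold change 0.34 ± 0.11 SE, edgeR adjusted p = 0.0918). For Efnb3 the log2 fold change was 0.18 ± 0.07, with all 3 aged libraries above the young ones. Efna2 went the other way, at 6.0, 4.67 and 6.46 CPM in the aged libraries, against 7.27, 7.87 and 7.68 CPM in the young libraries (log2 fold change -0.42 ± 0.15 SE, edgeR adjusted p = 0.108). The median log2 fold change of the ephrins was 0.18, and that of the Eph receptors, as given above, was below 0; the difference between the families was not tested.

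**Figure D3:**
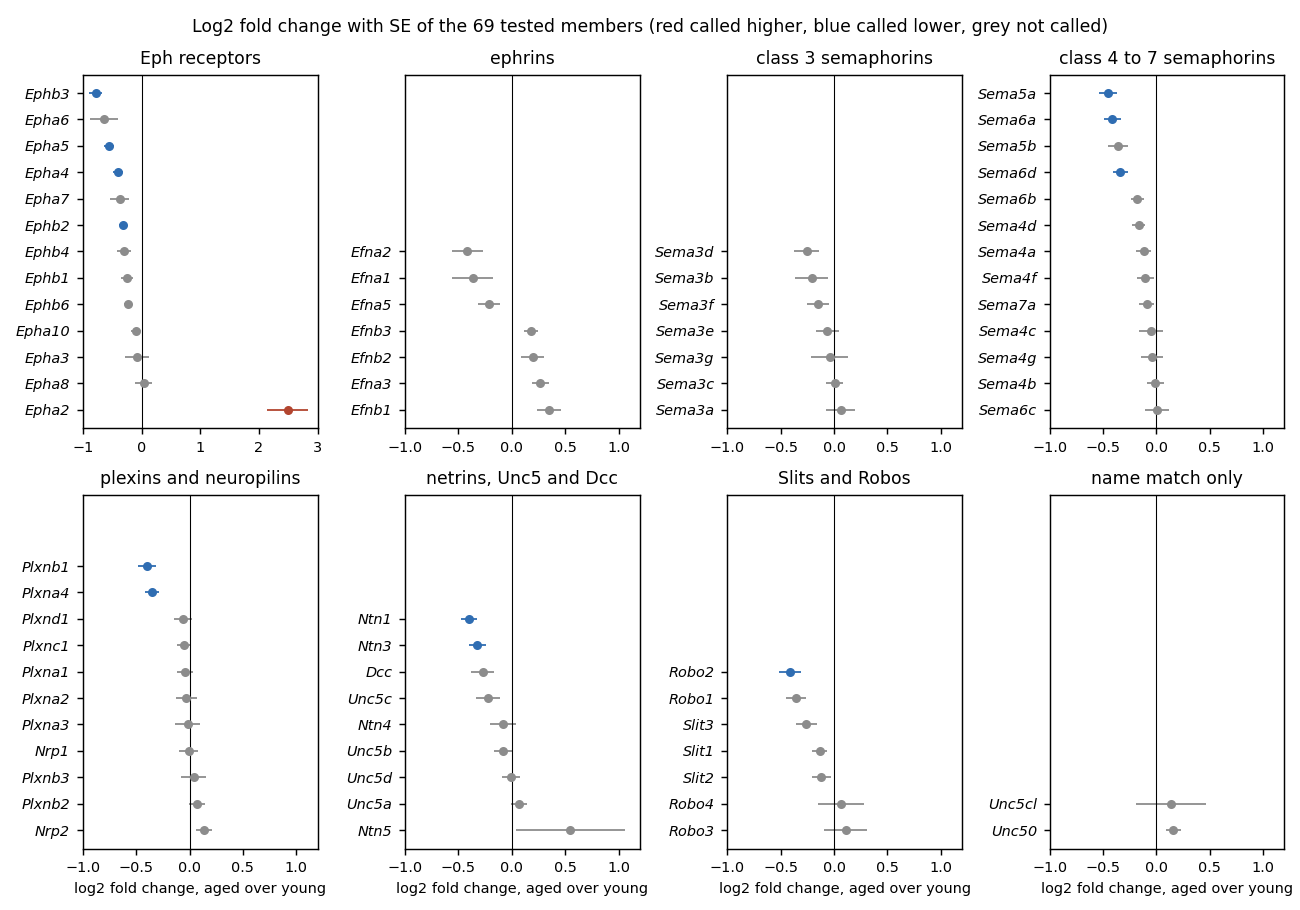
Log2 fold change of aged over young (horizontal axis, bars show the SE) of the 69 tested members, by family and sorted within it; the axis of the Eph receptors reaches further to the right. Red points were called higher, blue points lower and grey points did not pass; 4 of 13 Eph receptors, 3 of 13 class 4 to 7 semaphorins and 0 of 7 class 3 semaphorins are blue.

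Among semaphorins, calls fell in the membrane-bound classes, in their 3 longest genes. Of 13 class 4 to 7 semaphorins, Sema5a, Sema6a and Sema6d were lower and 10 did not pass, with a median log2 fold change of -0.12. Of 7 class 3 semaphorins, the secreted class, 0 passed in edgeR, 0 had an unadjusted p under 0.05, and 0 passed in DESeq2 or limma-voom; their median was -0.06. Sema5a, a transmembrane semaphorin with thrombospondin repeats, had 75.9, 91.3 and 73.4 CPM in the aged libraries, against 105, 116 and 108 CPM in the young libraries (log2 fold change -0.45 ± 0.09 SE, edgeR adjusted p = 0.0200). Sema6a, a ligand of plexins A2 and A4, had 50.2, 51.8 and 47.5 CPM in the aged libraries, against 73.2, 65.2 and 60.5 CPM in the young libraries (log2 fold change -0.41 ± 0.08 SE, edgeR adjusted p = 0.0211). Aged and young libraries were separate for both genes. Sema6d, a ligand of plexin A1, had 136, 124 and 142 CPM in the aged libraries, against 181, 165 and 162 CPM in the young libraries (log2 fold change -0.34 ± 0.07 SE, edgeR adjusted p = 0.0264). The calls were lost in 5, 6 and 7 of 17 alternatives for Sema5a, Sema6a and Sema6d. These genes are 11564, 31115 and 20389 bases long, and the other class 4 to 7 genes reach at most 7045 bases. With the trend of fold change on gene length removed, Sema5a alone of the 3 kept its call. In class 3, Sema3a is also long, at 13016 bases, and did not pass. The median level was 9.32 CPM in class 3 and 66.3 CPM in class 4 to 7. The part of gene length and level in the contrast between these classes was not tested.

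Sema6b, the semaphorin with the highest FPKM averaged over all 6 libraries (though not over the aged libraries alone), had 27.8 ± 1.86 FPKM in aged and 30.8 ± 0.479 FPKM in young libraries (SD, n = 3 each) and did not pass (log2 fold change -0.18 ± 0.06 SE, edgeR adjusted p = 0.109). In class 3, Sema3c had the highest level, at 5.67 ± 0.250 FPKM in aged and 5.53 ± 0.302 FPKM in young libraries, and its log2 fold change was 0.0039 ± 0.08. Sema3d, Sema3f and Sema3b had log2 fold changes of -0.26, -0.15 and -0.21, none of which passed (edgeR adjusted p = 0.198, 0.384 and 0.427). The summed oligodendrocyte precursor markers, given above, were also lower in all aged libraries than in any young one. This held too for the pericyte and smooth muscle list and the fibroblast and meningeal list. It also held for the thalamus and habenula list and the cortex, hippocampus and amygdala list. The part of these lists in the semaphorin values was not tested.

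Of 11 tested plexins and neuropilins, the semaphorin receptors, Plxna4 and Plxnb1 were lower and 9 did not pass, with a median log2 fold change of -0.03. Plxna4, a receptor for class 6 semaphorins and, with neuropilins, for class 3, had 139, 133 and 128 CPM in the aged libraries, against 182, 168 and 159 CPM in the young libraries (log2 fold change -0.35 ± 0.07 SE, edgeR adjusted p = 0.0194). Plxnb1, the receptor for Sema4d, had 167, 142 and 155 CPM in the aged libraries, against 222, 185 and 207 CPM in the young libraries (log2 fold change -0.40 ± 0.08 SE, edgeR adjusted p = 0.0249). No aged library reached a young one for either, and the calls were lost in 4 and 5 of 17 alternatives. Plxna1, the receptor with the highest level of the family, had 27.9 ± 2.32 FPKM in aged and 28.2 ± 1.59 FPKM in young libraries (SD, n = 3 each); its log2 fold change was -0.04 ± 0.08 and changed sign with the gene length trend removed and without aged replicate 2 or young replicate 1. Nrp2, a co-receptor for class 3 semaphorins, had a log2 fold change of 0.14 ± 0.08 (edgeR adjusted p = 0.306).

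The netrins Ntn1 and Ntn3 were lower, while no netrin receptor passed. The other 7 of 9 tested genes of this family did not pass. Ntn1, the ligand of Dcc and Unc5 receptors, had 30.5, 28.3 and 30.2 CPM in the aged libraries, against 38.9, 37.3 and 41.4 CPM in the young libraries (log2 fold change -0.40 ± 0.07 SE, edgeR adjusted p = 0.0175). Ntn3, a further netrin, had 17.8, 18.8 and 16.5 CPM in the aged libraries, against 22.6, 21.5 and 22.4 CPM in the young libraries (log2 fold change -0.32 ± 0.08 SE, edgeR adjusted p = 0.0467). The groups did not overlap for either gene. The Ntn1 call was lost in 4 and the Ntn3 call in 13 of 17 alternatives. In GENCODE M21 (GRCm38), 1.74% of the exon bases of Ntn3 are shared with Tbc1d24 on the same strand and 2.72% with an antisense gene. How reads over shared bases were counted is not given. A small part of the Ntn3 reads may therefore have been left out or belong to these other genes. Plxna4 and Plxnb1 share 0.780% and 2.68% of their exon bases with antisense genes.

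Dcc, the attractive netrin receptor, had 31.9, 42.6 and 36.9 CPM in the aged libraries, against 41.6, 48.3 and 44.8 CPM in the young libraries. Aged replicate 2 reached into the young range, and the gene did not pass (log2 fold change -0.27 ± 0.11 SE, edgeR adjusted p = 0.143; it passed without aged replicate 2). Unc5b, the Unc5 receptor with the highest level, stood at 11.1 ± 0.496 FPKM in aged and 11.5 ± 1.36 FPKM in young libraries (SD, n = 3 each), with a log2 fold change of -0.08 ± 0.09 that changed sign without young replicate 1. The members that match by name only did not pass either: Unc50 had a log2 fold change of 0.16 ± 0.07 and Unc5cl of 0.14 ± 0.33, which changed sign without young replicate 1.

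Of the Slits and Robos, 1 of 7 passed. Robo2, a Slit receptor of neurons, had 39.2, 46.0 and 40.8 CPM in the aged libraries, against 54.6, 63.9 and 49.0 CPM in the young libraries (log2 fold change -0.41 ± 0.10 SE, edgeR adjusted p = 0.0473; lost in 9 of 17 alternatives). Robo1, its close relative, had 56.2, 53.9 and 58.2 CPM in the aged libraries, against 78.9, 75.7 and 60.7 CPM in the young libraries, and missed the threshold (log2 fold change -0.36 ± 0.10 SE, edgeR adjusted p = 0.0555). It passed in DESeq2 and without young replicate 3. Young replicate 3 was the young library nearest to the aged ones for both receptors. Slit3 and Slit1, secreted ligands, had log2 fold changes of -0.26 ± 0.10 and -0.13 ± 0.07 and did not pass (edgeR adjusted p = 0.131 and 0.267).

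The proteins that relay or modify guidance signals were read from a list of 69 genes, all of which were tested. Of these, 7 (10.1%) were lower and 1 (1.45%) was higher in aged hypothalamus, against 3.64% and 3.22% over all tested genes. The list was chosen with earlier results of these data known, so these shares are no independent support for the members' results. The median log2 fold change was -0.10, against -0.0035 over all tested genes. Rgma, a repulsive ligand of neogenin, had 79.0, 70.0 and 75.1 CPM in the aged libraries, against 115, 104 and 92.6 CPM in the young libraries (log2 fold change -0.48 ± 0.09 SE, edgeR adjusted p = 0.0169). Ntng1, a membrane-anchored relative of the netrins that does not bind Dcc, had 40.4, 53.3 and 43.5 CPM in the aged libraries, against 74.8, 97.2 and 60.2 CPM in the young libraries (log2 fold change -0.76 ± 0.16 SE, edgeR adjusted p = 0.0279). Groups were separate for both, and for Ntng1 young replicate 2 again stood highest. The adhesion molecules Nrcam and L1cam fell by 0.39 and 0.27 on the log2 scale, and the kinase Gsk3b by 0.37. Arhgef12, an activator of RhoA that binds plexin B receptors, and Ablim1, an actin-binding protein, fell by 0.25 and 0.26. Nck1, an adaptor that links receptors to actin, was higher (log2 fold change 0.32 ± 0.08 SE, edgeR adjusted p = 0.0400). Leaving out aged replicate 1, 2 or 3 turned the count of 7 into 1, 5 and 0, and leaving out young replicate 1, 2 or 3 into 0, 1 and 5. Nck1 kept its call without aged replicate 2 and lost it without each of the other 5 libraries.

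Guidance genes are long, and fold changes varied with gene length over the whole table. The length behind the FPKM values had a median of 6081 bases over tested members and 3693 bases over all tested genes. Over the signalling partners it was 6063 bases. With all tested genes put into 10 classes of nearly equal size by length, the median log2 fold change was 0.11 in the shortest class and -0.12 in the longest, and 0.815% and 10.7% of genes were called lower. The longest class, from 9192 bases, held 19 members, of which 8 were called lower: Epha5, Ephb2, Plxna4, Plxnb1, Robo2, Sema5a, Sema6a and Sema6d. The 4 called lower outside it were Ephb3, Epha4, Ntn1 and Ntn3. With the trend on length removed in each library, 5 members were lower, Epha4, Epha5, Ephb3, Ntn1 and Sema5a, and Epha2 was higher, against 2.9% lower and 2.07% higher over all tested genes. The members' median log2 fold change was then -0.09 and that of all tested genes -0.03. Of the 69 signalling partners, 4 were then lower and 0 higher, with a median of -0.09.

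**Figure D4:**
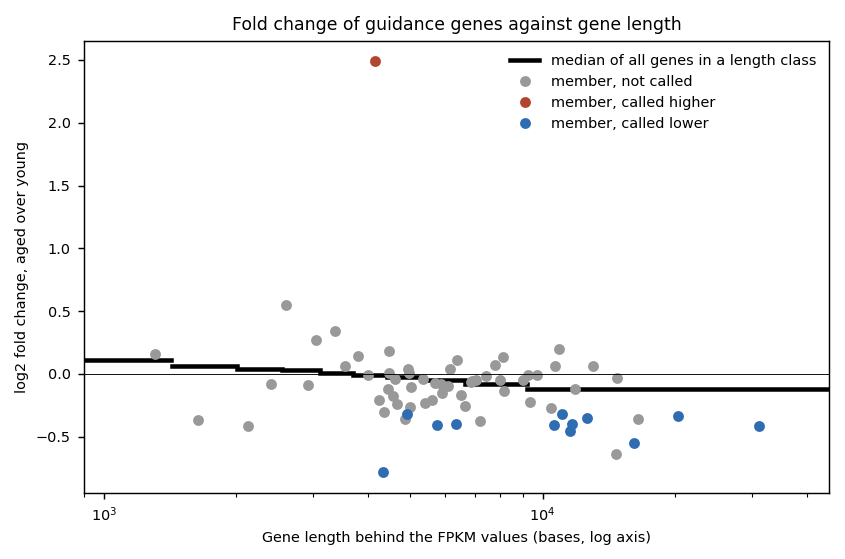
Log2 fold change of aged over young (vertical axis) against gene length in bases (log axis) for the 69 tested members, red called higher, blue called lower and grey not called; black bars are the medians of all tested genes in 10 length classes. The class medians run from 0.11 to -0.12, and 8 of the 12 blue points lie in the longest class; the axis leaves out the shortest and longest genes of the table.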

How the data were processed

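RNA was measured in 6 libraries (3 aged, 3 young). Total RNA was isolated with a mirVana kit and made into TruSeq Stranded mRNA libraries, per the labels' protocols. The submitters' processing notes name the tools HTSeq, HISAT2, Trimmomatic, DESeq and Cufflinks, with no version, and the build GRCm39. Which annotation was used and how strand was set in the counting is not given here in the sources used. The authors deposited whole-number read counts per gene, not normalized, and FPKM values. The deposited FPKM equal the counts over a gene length and the library total for 18228 of 18228 genes (relative tolerance 1e-06), which gave the gene lengths.

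Counts were tested with edgeR 4.0.16 (R 4.3.3), quasi-likelihood, aged against young with no covariate, after filterByExpr (minimum count 10, minimum total 15; 14702 genes) and TMM scaling. P-values were adjusted by Benjamini-Hochberg over all tested genes, and levels are TMM-normalised CPM. The test was also run on simulated data with known changes. Its outcome is not given here, and no result above rests on it. Replicates of an age differed by more than sampling noise (chi-square over its degrees of freedom of 4.04 to 12.1). Named genes are every called member, the 3 smallest p-values and the highest FPKM in each family, and the called genes among the signalling partners. The members and lists were chosen with earlier results of these data known. Alternatives were other scalings and filters, DESeq2 1.42.0, limma 3.58.1 (voom, and trend on log2(FPKM + 1) and log2(FPKM + 0.1)), removal of a length trend (loess, span 0.3), X- and Y-linked genes left out, a replicate block and leaving out each library.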

Additional observations from a re-analysis of the deposited data

How the results depend on the processing

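Of 13 called members, 3 (Epha2, Epha5 and Ephb3) kept direction and call under all 17 alternatives, and 10 lost the call in at least 1. The 12 members called lower were 6 on log2(FPKM + 1), 6 on log2(FPKM + 0.1) and 5 with the gene length trend removed, and 2 to 13 without single libraries. The member called higher was joined by Efna3 with total counts alone (2 members), and the number was 1 to 2 without single libraries. Of the signalling partners, the 7 lower were 11 in DESeq2, 3 on log2(FPKM + 1), 4 on log2(FPKM + 0.1) and 4 with the length trend removed, and 0 to 5 without single libraries. The 1 higher was 0 in DESeq2, 0 with the length trend removed and 0 with the replicate block, and 0 to 1 without single libraries. Over all genes 1009 calls became 150 to 1633 without single libraries; the other alternatives stayed within 1.5 times. Of the 69 tested members, 22 changed the sign of their log2 fold change in at least 1 alternative, and of the 13 called members 0 did. Among the members described in the text, these were Plxna1 (0.011 with the length trend removed, -0.076 to 0.041 without single libraries), Plxna3 (0.0090 with total counts alone, 0.011 on log2(FPKM + 1), 0.012 on log2(FPKM + 0.1), 0.019 with the length trend removed, -0.12 to 0.095 without single libraries), Plxnb3 (-0.061 to 0.16), Sema3c (-0.036 to 0.057), Unc5b (-0.13 to 0.031) and Unc5cl (-0.081 to 0.33), the last 4 without single libraries. The cause of these differences was not tested, except that leaving out a library leaves fewer samples.

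The replicate numbers did not pair the libraries: same-numbered deviations correlated at 0.0953, 0.0374 and -0.138 across genes, and not every library correlated best with its own number. The fit with the replicate block gave 1190 calls over all genes, 1 member higher and 12 lower (11 of them shared with the fit without it), and 10 partners lower. Depth limits the members with few reads most: the lowest library had 18 reads for Epha2, 9 for Unc5cl, 4 for Ntn5, 3 for Epha1 and 1 for Efna4.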

Other observations

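Plexins varied between libraries of the same age. Of 9 plexins, 8 had their lowest aged level in aged replicate 2, with 0 in aged replicate 1 and 1 in aged replicate 3. The share over all tested genes was not counted, so this is not shown to be particular to plexins. Among young libraries the lowest level fell in young replicate 1 for 1 plexin, in young replicate 2 for 4 and in young replicate 3 for 4. Plxna3, an X-linked plexin, had 136, 108 and 136 CPM in the aged libraries, against 143, 109 and 133 CPM in the young libraries. Plxnb3, also X-linked, had 77.3, 62.3 and 66.4 CPM in the aged libraries, against 77.4, 56.8 and 66.5 CPM in the young libraries. For both genes the spread within an age was larger than the difference between the ages. These genes were chosen after their values were seen, and nothing was tested on them beyond the fit over all genes.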
